A study of Homo sapiens with 12 samples.

Results

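Activated Jurkat cells that lack HuR (HuRKO) were compared with activated wild-type (WT) Jurkat cells. Jurkat is an established human line from an acute T-cell leukaemia. The libraries were chosen by the sample titles, which give 3 for activated HuRKO and 3 for activated WT, so 6 of the 12 libraries of the series enter the comparison. The other 6 are resting cells of the same 2 genotypes, 3 each. Activated cells had received PMA, a phorbol ester, at 20 ng/mL together with ionomycin, a calcium ionophore, at 500 ng/mL for 24 h, and resting cells had been left untreated for the same time. Poly(A) RNA was sequenced from directional libraries. The labels do not say how the knockout was made, whether the HuRKO cells are 1 clone, or whether replicates came from separate cultures, so a p-value here measures the spread between these libraries only.

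HuR, the product of ELAVL1, binds AU-rich and U-rich stretches in mRNA, mostly in 3′ untranslated regions (UTRs), and is known for stabilising many short-lived transcripts. In T cells, stimulation of the antigen receptor raises calcium and activates protein kinase C, which drive the transcription factors NFAT, NF-kB and AP-1, and through them cytokine genes whose mRNAs often carry AU-rich elements. Ionomycin supplies the calcium signal and PMA the protein kinase C signal. The title of the series names the activation response, apoptosis and cytokine 3′ UTRs as its subjects.

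The comparison is described over the 2587 genes of the authors' deposited table. That table is a selection. Every row has a false discovery rate (FDR) below 0.05 and a change above 4-fold in at least 1 of 4 comparisons, and 1189 of the rows are there through a comparison other than this one. A gene is called higher or lower here where its FDR for activated HuRKO over activated WT is below 0.05. The 342 rows listed through this comparison alone are thus called by construction, and the counts of calls below include them. Levels are normalised counts of a group, computed back from each row's mean and its 4 deposited changes. They carry no error of their own, are not divided by gene length, and are not given per library. A level below 1 normalised count, which is 3 counts over the 3 libraries of a group, is called below the floor, and a fold against it is a lower bound. Levels written as one value against another are HuRKO against WT after activation unless rest is named.

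ELAVL1 (ENSG00000066044.14, chromosome 19, 7958579 to 8005659, hg38), the targeted gene, was at 471 against 2552 in activated cells and at 596 against 4042 at rest. The authors' deposited table gives an FDR of 1.2e-131 for the activated difference. The mRNA was thus 5.42-fold lower but not at the floor in the activated cells labelled as knockout.

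In bulk RNA fewer cells of a type and less RNA per cell cannot be told apart, here and below. In activated HuRKO cells 1092 genes were higher, 42.2% of the rows, and 916 were lower, 35.4%, whereas 579 were not called. By 4-fold or more, 820 genes were higher (31.7% of the rows) and 578 lower (22.3%). With a mean level of at least 50 the excess of higher genes was absent, at 494 higher and 520 lower, and 300 and 297 by 4-fold or more. The median log2 change over all rows was 0.36, with quartiles of -1.76 and 2.25. The higher genes had a median level of 76.6 in activated HuRKO and 12.3 in activated WT cells. The lower genes had a median of 25.6 against 143. At rest the same higher genes had medians of 26.5 in HuRKO and 10.8 in WT, and the lower genes 15.4 and 28.0. Among the higher genes 82 lay below the floor in activated WT cells, and among the lower genes 52 lay below it in activated HuRKO cells.

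**Figure D1:**
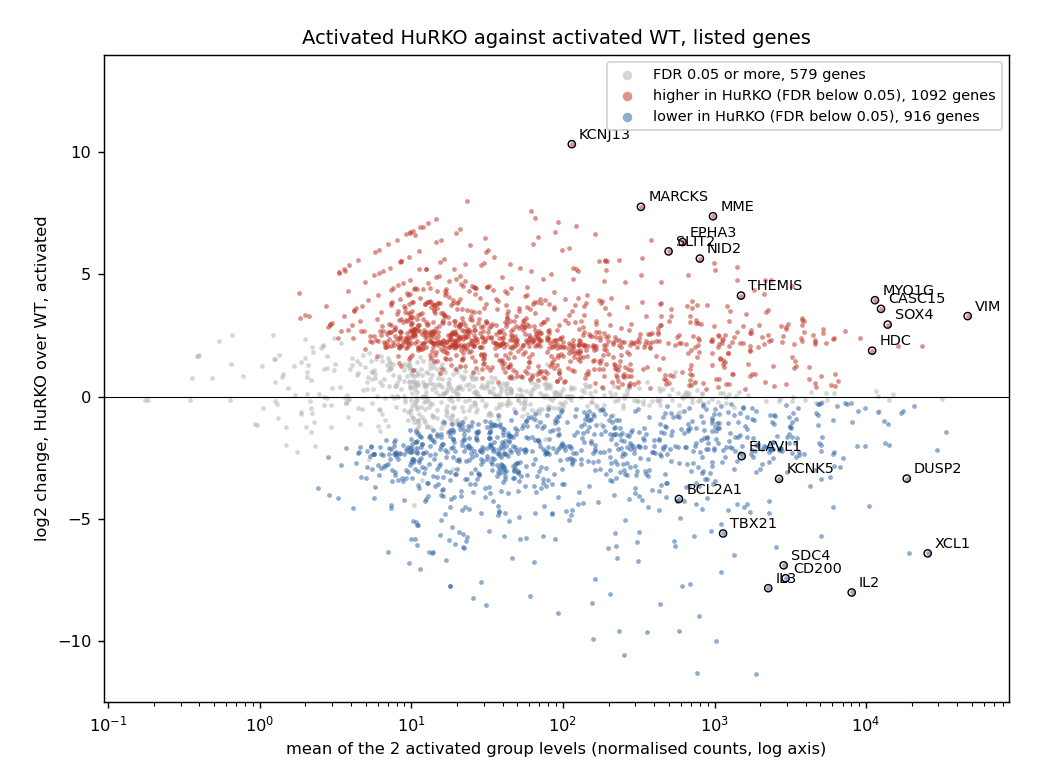
Each point is 1 listed gene. The horizontal axis is the mean of the 2 activated group levels in normalised counts on a log axis, and the vertical axis is the log2 change of activated HuRKO over activated WT from the authors' deposited table. Red points are the 1092 higher genes, blue the 916 lower and grey the 579 not called. XCL1 and IL2 stand at the lower right, and VIM at the far right.

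The largest rises among genes with a level of at least 10 in both activated groups included genes of surface and secreted proteins. MME, which encodes the peptidase CD10 of immature lymphocytes, was at 1943 against 11.6, and the ephrin receptor gene EPHA3 at 1215 against 15.1. SLIT2, a secreted guidance ligand, was at 979 against 15.9, PRUNE2 at 652 against 12.8 and the basement membrane gene NID2 at 1569 against 31.2. The keratin gene KRT1 was at 1927 against 42.97, the spectrin-binding adducin gene ADD2 at 2760.0 against 70.4 and the nuclear factor gene TOX2 at 1953 against 53.6. In the authors' deposited table the log2 changes of these 8 run from 5.19 for TOX2 to 7.38 for MME, and ADD2 has the smallest FDR of any higher gene, 1.3e-303. MME, EPHA3, SLIT2, PRUNE2, ADD2 and TOX2 were higher at rest too, whereas NID2 was at 174 against 146 at rest (FDR 0.3 in the authors' deposited table) and KRT1 at 38.5 against 67.6.

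The largest falls by the same rule were in IL2 (259-fold), IL3 (229-fold), CD200 (173-fold), F5 (144-fold), SDC4 (119.8-fold), ARNT2 (88.3-fold), XCL1 (85.4-fold) and XCL2 (85.3-fold). F5, which encodes coagulation factor V, was at 15.2 against 2192, and ARNT2, a partner of basic helix-loop-helix factors, at 30.2 against 2664. F5 was already lower at rest, at 1.42 against 23.6. IL3, SDC4, ARNT2 and CD200 lay below the floor in resting WT cells. XCL1 and XCL2 are near-identical copies, and their separate values are uncertain.

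Ranked by FDR, the lower genes opened with KCNK5, a potassium channel gene at 471 against 4859, and IL21R, the interleukin 21 receptor at 617 against 7856. The authors' deposited table gives them FDRs of 2.4e-244 and 1.2e-236. SERPINA1, a protease inhibitor, was at 41.6 against 1859, TAGAP, a GTPase-activating protein of activated T cells, at 889 against 20008, SMIM10L2A at 93.4 against 2346 and LONRF2 at 92.3 against 1209. The 10 higher genes of smallest FDR included, besides ADD2, HS3ST3B1, a heparan sulfate sulfotransferase at 2730.2 against 100.2, the phosphatase gene PPM1H at 4042 against 221, AFF2 at 6991 against 814, THEMIS at 2829.9 against 161 and RCBTB2 at 4579.7 against 169.8. The N-myristoyltransferase gene NMT2 was at 2336 against 205.

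Counted as a change of level rather than as a ratio, VIM gained most, from 8646 to 84918. It was followed by STT3B, a catalytic subunit of oligosaccharyltransferase at 37756 against 9055, the transcription factor gene SOX4 at 24576 against 3184, the long non-coding RNA CASC15, which lies beside SOX4 on chromosome 6, at 23160.0 against 1921, and the unconventional myosin gene MYO1G at 21495 against 1394. PTPRC, ETS1 and HDC completed the 8 largest gains. The 8 genes held 32.1% of the summed gain over all rows with a higher level in HuRKO. The largest losses included XCL1, XCL2, PTPN7, DUSP2, TAGAP, WARS and IL2. PTPN7, a phosphatase of MAP kinases, was at 18089 against 49393.

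The cytokine and chemokine ligands were mostly lower. Of 84 ligand genes defined, 34 were listed, and 26 were lower, 5 higher and 3 not called, against 35.4% lower over all rows. Their median log2 change was -3.24, against 0.36 over all rows. CSF2, the granulocyte-macrophage growth factor, was at 27.6 against 1426, the chemokine genes CCL1 and CCL20 at 6.78 against 1379 and 5.35 against 391, and the TNF family ligand TNFSF14 at 70.1 against 4993. The inflammatory chemokine genes CCL3 and CCL4 were at 62.8 against 1203 and 156 against 1615, LIF, a ligand of the gp130 receptor, at 36.5 against 560.4, and IL13, a type 2 cytokine, at 34.9 against 372. EBI3, a shared subunit of the IL-27 family, was at 6.40 against 213. At rest, 10 of these genes (IL3, CCL20, IFNG, CSF2, EBI3, CCL3, CCL4, CCL3L3, CCL4L2 and FASLG) were below the floor in WT cells.

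In the same list 5 ligand genes were higher. CD40LG, the B-cell help ligand, was at 548 against 133, and IL4, the type 2 cytokine, at 14.6 against 3.02. LTB, a membrane-bound lymphotoxin, was at 919.6 against 492, IL16 at 6511 against 3579.9 and TNFSF10, the death ligand TRAIL, at 1398 against 983. Values for those not called were 282 against 308 for IL23A, 355 against 276 for TNFSF4 and 21.8 against 9.53 for FASLG. IL13 and IL4, which are neighbours on chromosome 5, thus differed in opposite directions. IL4, at a low level in both groups, and CD40LG are listed through this comparison alone. Of the 32 ligand genes selected in another comparison, 3 were higher and 26 lower.

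The sites below are shown because AU-rich elements are the sequences HuR is known to bind and because they occur in the 3′ UTRs of genes that differed in both directions. GATA3, a transcription factor gene, stands beside 7 ligand genes. Each is the 30-base window of the longest GENCODE 29 3′ UTR that holds the most ATTTA pentamers, on the transcript strand, 5′ to 3′, in DNA letters, with each ATTTA in capitals. Coordinates are hg38.
IL2, chr4:122451683-122451712, minus strand: ATTTATTTAaatATTTAaattttatATTTA
IL3, chr5:132063017-132063046, plus strand: tATTTATTTAtgtatgtatgtATTTATTTA
CSF2, chr5:132076076-132076105, plus strand: aaaatATTTATTTATTTATTTATTTAagtt
TNF, chr6:31578004-31578033, plus strand: ttattATTTATTTAttATTTATTTATTTAc
IFNG, chr12:68155284-68155313, minus strand: tctATTTAttaatATTTAacattATTTAta
IL4, chr5:132682621-132682650, plus strand: tttttaagtATTTAtatATTTAtaactcat
CD40LG, chrX:136659493-136659522, plus strand: ctgttaactgcctATTTAtaaccctaggat
GATA3, chr10:8074773-8074802, plus strand: ctgttgtataaATTTATTTActgctagtct

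IL2, IL3, CSF2, TNF and IFNG were lower and IL4, CD40LG and GATA3 higher in activated HuRKO cells. IL4 and CD40LG are in the selection only because they were higher in this comparison. The 3′ UTR of IL2 held 7 pentamers in 282 bases, that of CSF2 8 in 318 bases and that of IL4 3 in 241 bases. The 609-base 3′ UTR of LTB, which was higher, held 0, and the 1087-base 3′ UTR of TNFSF8, which was 213-fold lower, held 1. A match of letters is not a binding site, and binding was not measured here.

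Over all coding genes with an annotated 3′ UTR and without regard to its length, the pentamer ATTTA stood in a share of the higher genes close to that of the annotation. It stood in 67.7% of 774 higher, 72.3% of 678 lower and 67.3% of 376 genes not called, against 67.6% of 19145 coding genes of GENCODE 29. Median 3′ UTR lengths were 1498.5 bases for the higher, 1319.5 for the lower, 1098 for those not called and 1103 for all coding genes. Per 1000 bases of 3′ UTR the pentamer occurred 1.87 times in the higher, 2.13 times in the lower and 2.05 times in the genes not called, against 2.22 times over all. The overlapping double copy ATTTATTTA, whose matches are also counted as pentamers, stood in 6.98% of the higher and 8.997% of the lower genes. It stood in 8.51% of the genes not called and in 6.92% over all. Per 1000 bases it occurred 0.0605 times in the lower genes and 0.0697 times in those not called. A run of 7 T stood in 50.3% of the higher and 45.7% of the lower genes, against 44.5% over all. A pentamer taken for comparison, AGGGA, stood in 77.5% and 72.0%, against 66.4%. Only the transcript strand was searched.

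By length of the 3′ UTR, the lower genes held the pentamer more often than the higher genes in every class. The higher genes held it less often than all coding genes in every class, as did the listed genes as a whole. Under 500 bases the pentamer stood in 33.3% of 156 lower and 22.2% of 158 higher genes, against 28.96% over all, and from 2000 to below 4000 bases in 92.99% of 157 lower and 90.9% of 187 higher genes, against 94.6%. In the cytokine list the pentamer stood in 30 of 34 genes (88.2%) and the double copy in 8 (23.5%). None of these shares was tested, since the rows are a selection.

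**Figure D2:**
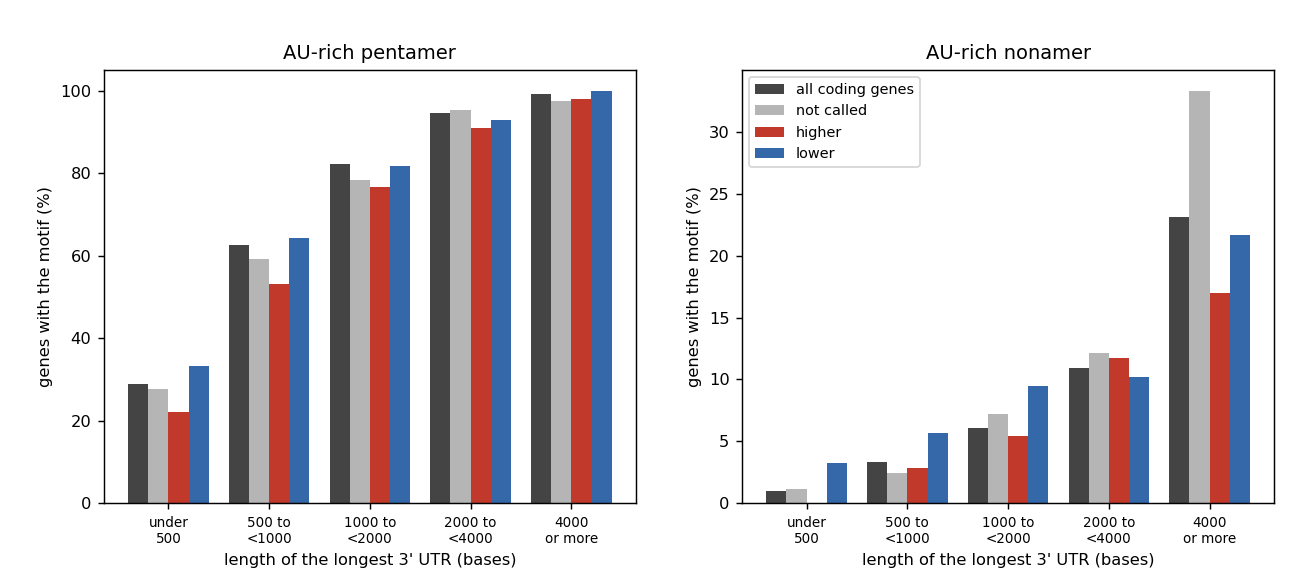
Bars give the percentage of coding genes whose longest annotated 3′ UTR holds the AU-rich pentamer (left) or nonamer (right), by 3′ UTR length in bases. Colours are all coding genes, genes not called, higher genes and lower genes in activated HuRKO cells. Under 500 bases the pentamer share is 33.3% for the lower and 22.2% for the higher genes, and the classes above 2000 bases lie between 90.9% and 100%.

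Of 7 listed genes for proteins that bind AU-rich or other mRNA elements, 5 were lower and 0 higher, against 35.4% and 42.2% over all rows. Besides ELAVL1 these were ZC3H12C at 1.83 against 103, the endonuclease gene ZC3H12A (Regnase-1) at 785 against 1652, ZC3H12D at 37.9 against 76.3 and CPEB2 at 69.8 against 143. The decay factor genes ZFP36L1 and ZFP36L2 were not called, at 13464 against 14705 and 717 against 648. Among 22 listed HuR target mRNAs from published work, 14 were lower, 5 higher and 3 not called, with a median log2 change of -1.35. Over all rows 35.4% were lower and 42.2% higher, with a median of 0.36. MYC was at 125 against 3323, the cyclin genes CCND2 and CCND1 at 64.2 against 310.1 and 23.1 against 55.7, and VEGFA at 523 against 1398. GATA3 and MMP9 were higher, at 4812 against 851 and 141 against 45.8, and FOS, JUN and PLAU were not called, at 74.1 against 74.98, 600.2 against 547 and 417 against 456. Some of these genes, IL2 and IL3 among them, also belong to the ligand list above.

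Of 21 listed interleukin and growth factor receptors and JAK-STAT genes, 8 were higher and 9 lower, near the shares over all rows (42.2% and 35.4%), with a median log2 change of -0.03. The lower ones included IL21R, IL15RA at 11.2 against 85.04, IL4R at 761 against 3014, the kinase gene JAK2 at 384 against 1421 and STAT4, the transducer of IL-12, at 133 against 399. IL2RB, a signalling chain of the IL-2 receptor, was at 365 against 969.8. The higher ones included receptor tyrosine kinase genes, with FLT3 at 12.02 against a level below the floor, FGFR1 at 6678 against 1073, CSF1R at 31.5 against 7.11 and KIT at 11.3 against 2.71. IL12RB2 was at 28.8 against 2.05. IL2RA, the high-affinity chain of the IL-2 receptor, was not called, at 251 against 187, nor were IL7R at 36.6 against 32.9 and JAK3 at 2484 against 2812.

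Of 10 listed TNF receptor superfamily genes and adaptors, 7 were lower and 1 higher, against 35.4% and 42.2% over all rows. Their median log2 change was -1.94. The costimulatory receptor genes TNFRSF9 (4-1BB), CD27, TNFRSF4 (OX40) and TNFRSF18 (GITR) were at 163 against 4446, 101 against 1264, 171 against 1488 and 1.58 against 15.9. The adaptor gene TRAF1 was at 2112 against 12015 and the TNF receptor gene TNFRSF1B at 475 against 1223. TNFRSF13C, the BAFF receptor of B cells, was higher at 175 against 45.6. TNFRSF4 had been higher at rest, at 1407 against 425.

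Among surface receptors that costimulate or inhibit T cells, 54 were defined and 29 listed. Of these, 14 were lower and 7 higher, against 35.4% and 42.2% over all rows, with a median log2 change of -0.51. CD200, an inhibitory ligand, was at 33.9 against 5854, and BTLA, an inhibitory receptor, at 57.4 against 2139. CD274, which encodes PD-L1, was at 15.1 against 501, its receptor gene PDCD1 at 318 against 1185 and ICOS, an inducible costimulator, at 152 against 1573. SLAMF1, VSIR and CRTAM were at 29.7 against 201, 279 against 1328 and 327 against 1432. The higher genes included CD28 at 9052 against 1342, the inhibitory receptors LAIR1 and CD300A at 1996 against 479 and 588 against 122, and SLAMF7 at 1225 against 346. CD4 was at 45.9 against 6.92, and CD8B at 7.25 against a level below the floor. In the authors' deposited table the FDR was 1.5e-38 for BTLA, 1.5e-23 for CD274, 3.9e-18 for PDCD1 and 1.4e-58 for LAIR1. CTLA4 was at 5.54 against 16.5, and its difference did not pass (FDR 0.084 in the authors' deposited table).

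Proximal T-cell receptor signalling had 12 listed genes, 6 higher and 4 lower, shares near the 42.2% and 35.4% over all rows. THEMIS, an adaptor of developing T cells, the guanine nucleotide exchange factor gene RASGRP2 and the SLAM-associated adaptor SH2D1A were at 2829.9 against 161, 414 against 87.6 and 2958 against 480.2. PTPRC, which encodes the phosphatase CD45, was at 26319.8 against 6316. The adaptor genes SH2D2A and PAG1 were lower at 800.2 against 3085 and 664 against 1849, as was TRAC at 17916 against 23285. LCP2, the adaptor SLP-76, was at 12055 against 11953 and was not called. Of 15 listed feedback inhibitors of that signalling, 8 were lower and 2 higher, against 35.4% and 42.2% over all rows. DUSP2 was at 3302 against 33778, the atypical IkB gene NFKBID at 186 against 1373, the G-protein regulator RGS16 at 718 against 4149 and NFKBIE at 620.3 against 1315. DUSP6, a phosphatase of ERK, went the other way at 804 against 177, as did SPRY1 at 1625 against 639.8. DUSP5, CBLB and DUSP8 were not called, at 696 against 606, 1537 against 1353 and 98.3 against 93.3.

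Transcription factors formed a contrast between 2 lists. Of 39 listed factors linked to activation, 27 were lower, 5 higher and 7 not called, with a median log2 change of -1.16. Of 19 listed factors of the T lineage and of leukaemia, 15 were higher, 3 lower and 1 not called, with a median of 2.24. Over all rows 35.4% were lower and 42.2% higher, with a median of 0.36. Some of these rows are listed through this comparison alone. Among rows selected in another comparison, 10 of 14 factors of the second list were higher and 3 lower. For the first list the counts were 5 higher and 24 lower of 36, and over all 2245 such rows 863 and 803. The difference between the lists was not tested. In the first list TBX21, NR4A2, NR4A1 and EGR3 were at 45.9 against 2230.4, 33.3 against 629, 94.8 against 1683 and 117 against 1472. NR4A and EGR proteins are early products of antigen receptor signalling. NFATC1, a calcium-regulated factor that induces its own transcription, was at 1269.6 against 6512, and the NF-kB subunit gene REL at 788 against 2486. IRF8 was at 65.5 against 487. Higher members were TOX2, EOMES at 4128 against 151, IRF5 at 25.99 against 2.28, MAF at 36.8 against 16.5 and IER2 at 6820.0 against 4911.

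In the second list MYB, a factor of thymocyte and leukaemic growth, was at 10129 against 1963, and TCF7, the T-cell factor of Wnt signalling, at 2268 against 412. SOX4, ETS1, GATA3, RUNX3 and IKZF2 were at 24576 against 3184, 15242 against 2912, 4812 against 851, 2161 against 456 and 7568 against 1313. The haematopoietic factor genes LYL1 and HHEX were at 629.9 against 20.01 and 225 against 16.8, and ERG at 16.7 against a level below the floor. IKZF4, BACH2 and ZBTB7B were lower, at 36.6 against 291, 2117 against 4324 and 87.7 against 152. In the authors' deposited table the FDR was 1.5e-70 for MYB, 2.0e-51 for TCF7, 8.3e-53 for RUNX3 and 1.4e-56 for NFATC1. At rest MYB, TCF7 and RUNX3 were at 7126 against 6179, 15608 against 12209.8 and 976 against 504, HuRKO against WT. The rebuilt levels of the 2 genotypes lay closer together at rest than after activation in these 3 genes, a difference that was not tested.

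Of 13 listed recombination and immature thymocyte genes, 7 were higher and 2 lower, against 42.2% and 35.4% over all rows. ARPP21 was at 849 against 32.8, the surrogate light chain gene IGLL1 at 497 against 123, CD34 at 89.3 against 12.7 and DNTT at 12.03 against 4.67. RAG1, the recombinase, was lower at 27.9 against 46.9, although it had been higher at rest at 1425 against 560.1. Among 13 listed NOTCH pathway genes 4 were higher and 3 lower, against the same shares over all rows. The target HES1 was at 39.2 against 4.72 and the ligand gene JAG2 at 424 against 60.98, while the coactivator gene MAML2 was at 35.9 against 603 and the feedback gene NRARP at 12.9 against 57.4.

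Chemokine and homing receptors, listed together with KLF2, KLF3 and FOXO1, transcription factors linked to homing, were mostly higher. Of 40 genes defined, 21 were listed, and 15 were higher and 2 lower, against 42.2% higher over all rows, with a median log2 change of 2.10. These receptors direct lymphocytes between blood, lymph node and tissue. S1PR1, the sphingosine phosphate receptor that lets T cells leave lymphoid organs, was at 256 against 19.7, and its transcriptional activator KLF2 at 34.2 against 7.99. CXCR4, the receptor of CXCL12, was at 2708 against 743. The chemokine receptor genes CCR2, CXCR5, CCR8 and CCR4 were at 81.6 against 4.35, 55.5 against 4.55, 21.4 against 1.98 and 536 against 102. CCR9, a gut-homing receptor, and S1PR4 were at 14.2 and 14.4 against levels below the floor. FOXO1, a factor that sustains KLF2, was lower at 169 against 467, and CCR7, the lymph node homing receptor, at 148 against 211. CXCR3 and ACKR3 were not called, at 146 against 120.4 and 17.9 against 12.9. The authors' deposited table gives FDRs of 1.4e-37 for S1PR1, 3.3e-24 for CXCR4, 1.9e-12 for CCR2 and 1.1e-10 for FOXO1.

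CXCR4 was at 5461 against 5063 at rest, HuRKO against WT, and CCR4 at 40.3 against 159, so CCR4 changed sign between the states. Several members of this list had low levels. S1PR1, GPR183, CCR1, CCR2, CCR8, CCR9, CXCR5, S1PR4, PTGDR2, ACKR3 and KLF2 were each below 40 in activated WT cells.

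**Figure D3:**
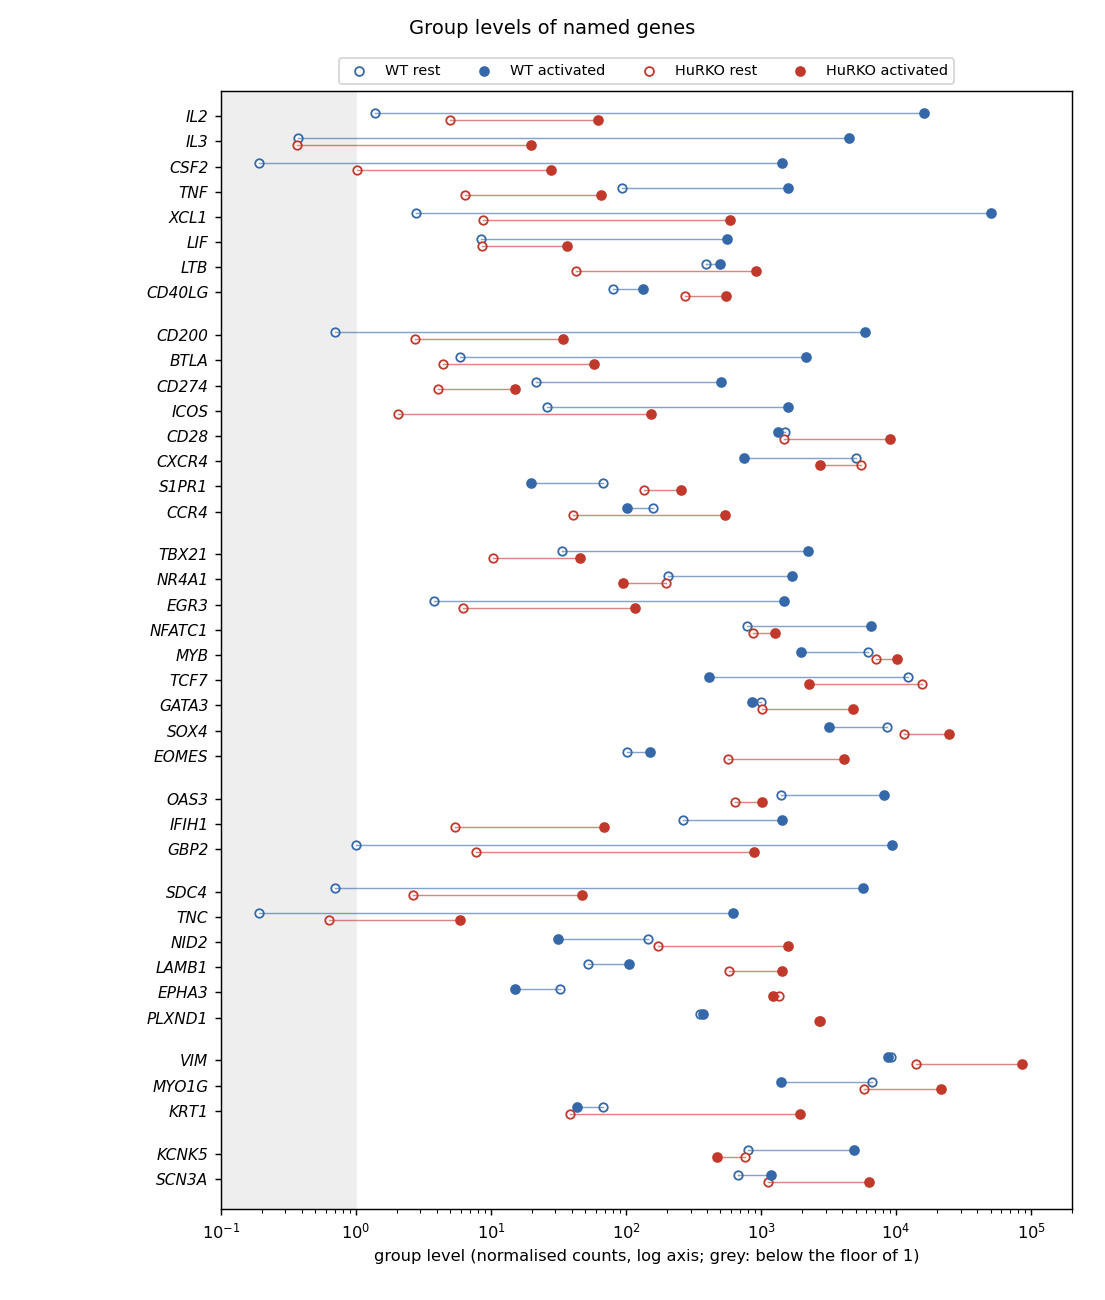
Rebuilt group levels in normalised counts, on a log axis, of named genes. Open symbols are resting and filled symbols activated cells, blue is WT and red is HuRKO, each from 3 libraries, and grey marks levels below the floor. IL2 ends at 16006 in WT and 61.8 in HuRKO, whereas VIM ends at 8646 and 84918.

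Interferon response genes were lower almost throughout. Of 79 defined, 40 were listed and 38 were lower, against 35.4% lower over all rows. MX2 was higher at 979 against 785 and OASL was not called at 222 against 279. Type I interferon activates a complex that holds STAT2 and IRF9 and binds the interferon-stimulated response element (ISRE) in target promoters. STAT2 was at 1835 against 3159 and IRF9 at 154 against 294. The guanylate-binding protein genes GBP2, GBP5, GBP1 and GBP4 were at 885 against 9241, 1580.1 against 11780.4, 1086 against 5446 and 54.4 against 362. IFI44L was at least 309-fold lower, IFIT1 was at 6.30 against 438, OAS1 at 76.5 against 887, the ubiquitin-like gene ISG15 at 492 against 2105 and its protease gene USP18 at 191 against 1255. At rest 20 of the 40 were lower and 4 higher, with a median log2 change of -0.55 against -2.17 after activation. Interferon transcripts other than IFNG were not analysed here.

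These promoter stretches are shown because the genes were lower together and hold the letters of the response element. They are from RefSeq (GRCh38.p14), written on the gene's strand, 5′ to 3′, with the match in capitals.
OAS3, chr12:112938323-112938348, plus strand: aaagaaacGAAACTGAAAgcagggaa
DDX60, chr4:168318823-168318848, minus strand: gctgaaggGAAACTGAAAcctaagtg
ISG15, chr1:1013376-1013401, plus strand: tgcctcggGAAAGGGAAAccgaaact
EPSTI1, chr13:42992274-42992299, minus strand: gattctgaGAAACCGAAActcagctg
IFI44, chr1:78649763-78649788, plus strand: acactgagTTTCAGTTTCctttctct
IFIH1, chr2:162318688-162318713, minus strand: agagaatcGAAACAGAAAccaaagtc
GCA, chr2:162318688-162318713, plus strand: gactttggTTTCTGTTTCgattctct

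The motif searched was GAAA, any 2 bases, then GAAA, on both strands, from 250 bases before to 50 bases after each gene's start. On the other strand it reads TTTC, 2 bases, TTTC. The match begins 143 bases before the start in OAS3, 88 in DDX60, 113 in ISG15 and 21 in IFIH1. It stood in 17 of 26 interferon response genes with a window (65.4%), in 9.55% of 492 lower, 5.03% of 577 higher and 2.67% of 262 genes not called, against 4.38% of 27305 windows of all genes. Of the listed coding genes, 1331 had a window. Outside the interferon list the share was 6.44% of 466 lower genes. IFIH1 and GCA lie head to head on chromosome 2 and share the stretch printed for both. GCA, a calcium-binding protein gene chosen after its values were seen, was at 30.8 against 107, and IFIH1 at 68.3 against 1439. Of the 29 higher genes with the motif, 8 are GOLGA8 copies of near-identical sequence, whose counts are uncertain. For comparison the AP-1 motif TGANTCA stood in 13.0% of the lower and 9.88% of the higher genes, against 9.37% over all. It was searched on both strands, and overlaps between matches of the 2 motifs were not counted.

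Antigen presentation genes were mixed, with 4 lower, 2 higher and 5 not called of 11, against 35.4% lower and 42.2% higher over all rows. TAP1, a subunit of the peptide transporter, was at 2007 against 10155, and the non-classical class I genes HLA-E and HLA-F at 5642 against 21082 and 399 against 983. HLA-B was not called, at 9822 against 14673. HLA genes are close copies and polymorphic, so their counts are uncertain.

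Genes of apoptosis and survival stood on both sides, with 11 lower and 7 higher of 19, against 35.4% and 42.2% over all rows. BCL2A1, an anti-apoptotic BCL2 relative, was at 60.5 against 1104, the death-associated kinase gene DAPK1 at 52.8 against 908, PHLDA1 at 2077 against 10117 and the antiproliferative gene BTG2 at 653 against 3026. TP53INP1, a p53 target, BOK, a BAX-like gene, BMF and HRK were higher at 1666 against 125, 33.8 against 2.53, 986 against 174 and 26.9 against 9.13. PHLDA1 had been higher at rest, at 73.4 against 36.2. Only 5 of 68 cell cycle and growth arrest genes were listed, so the table says little about them. CCND2 was lower, and CCNG2, a cyclin linked to growth arrest, was higher at 1613 against 312.

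Of 26 listed axon guidance and ephrin receptor genes 17 were higher and 3 lower, against 42.2% and 35.4% over all rows, with a median log2 change of 2.09. Besides EPHA3 and SLIT2, the semaphorin receptor gene PLXND1, known for guiding thymocytes, was at 2712 against 369, PLXNB1 at 3473 against 775 and PLXNA4 at 78.4 against 7.63. SEMA6A stood at 38.95 and lay below the floor in WT, SEMA4C at 300.2 against 47.6 and EFNA1 at 78.2 against 12.03. SEMA7A, EPHB4 and SEMA3G were lower, at 844 against 3861, 13.5 against 68.3 and 12.2 against 63.1. At rest 13 of the 26 were already higher in HuRKO cells, with a median log2 change of 1.39. PLXND1 was at 2682 against 350.3 at rest.

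Of 18 listed cadherin and protocadherin genes, which encode calcium-dependent adhesion proteins, 12 were higher and 1 was lower, against 42.2% and 35.4% over all rows. With an FDR below 0.001, 7 were higher. Of the 13 selected in another comparison, 7 were higher and 1 was lower, and the rest of the list is there through this comparison alone. CDH4 and CDH2 were at 3456 against 458 and 634 against 135, and the clustered protocadherin genes PCDHGB2 and PCDHGB6 at 51.2 against 2.33 and 106 against 14.1. PCDH12 was lower at 40.4 against 409. Clustered protocadherins share exons, so reads can be split between them. Of 18 listed integrin and leukocyte adhesion genes 9 were higher and 6 lower, near the shares over all rows. ITGAL and ITGA4, which pair with CD18 and CD29 in lymphocyte adhesion, were at 5202 against 753 and 10243 against 1949.7, ITGA6 at 1806 against 317 and L1CAM at 272 against 15.3. The inducible adhesion ligands VCAM1 and ICAM1 were lower at 7.92 against 201 and 156 against 529, as were the myeloid-type integrin genes ITGAD and ITGAX at 246 against 683 and 121 against 358.

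Of 30 listed matrix genes 14 were higher, 9 lower and 7 not called, shares near those over all rows (42.2% higher and 35.4% lower). SDC4, a heparan sulfate proteoglycan of the cell surface, was at 47.3 against 5668, and lower by 119.8-fold. COL5A3, COL5A2 and COL6A3 were lower at 2.94 against 80.1, 60.6 against 290.4 and 427 against 1357, whereas COL6A2 and COL5A1 were higher at 337 against 7.14 and 49.9 against 2.28. The laminin chain genes LAMB1 and LAMA5 were at 1429 against 106 and 81.1 against 11.8, and LAMB3 was lower at 16.02 against 73.2. FRAS1 stood at 122 and lay below the floor in WT. The authors' deposited table gives FDRs of 1.3e-173 for NID2, 3.6e-109 for LAMB1 and 4.7e-23 for SDC4. Thus chains of the same collagen types, V and VI, stood on both sides.

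Among 23 listed cytoskeleton genes 13 were higher and 3 lower, against 42.2% and 35.4% over all rows, with a median log2 change of 2.14. These include VIM, the intermediate filament gene of mesenchymal and lymphoid cells, MYO1G, a lymphocyte membrane myosin, and KRT1. NES, another intermediate filament gene, was at 37.5 against 2.63, TUBB3 at 26.1 against 2.42, S100A10 at 360.3 against 47.7 and MARCKSL1 at 5475 against 1241. MARCKS was at 651 against 2.99 and had been at 532 against 2.06 at rest. FLNA, the actin cross-linker filamin A, was lower at 9413 against 14702, and ANXA1 at 843 against 3403. At rest VIM was at 13997 against 9144, MYO1G at 5805 against 6584 and FLNA at 4641 against 28555.

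Of 32 listed ion channel genes 19 were higher and 8 lower, against 42.2% and 35.4% over all rows, with a median log2 change of 1.80. The voltage-gated sodium channel gene SCN3A was at 6270.4 against 1182 and SCN9A at 131 against 26.2. T-type calcium channel genes CACNA1H and CACNA1I were at 1221 against 221 and 66.2 against 3.24, and the ATP-gated channel gene P2RX5 at 1299.7 against 246. KCNJ13 stood at 229 and lay below the floor in WT, and its FDR in the authors' deposited table was 0.03. Besides KCNK5, the lower channel genes included ITPR1, the receptor that releases calcium from internal stores, at 1311 against 4851, KCNG1 at 2.83 against 145 and KCNN3 at 13.03 against 86.9. KCNK5 was at 757 against 798 at rest, where the authors' deposited table lists the FDR as 0.68.

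Of 44 listed genes whose symbol begins with SLC, 23 were higher and 13 lower, against 42.2% and 35.4% over all rows. The count includes an antisense gene and the adaptor gene SLC9A3R2. The nucleoside transporter gene SLC29A1 was at 306 against 2362, the folate carrier gene SLC19A1 at 296 against 1195 and the bicarbonate transporter genes SLC4A4 and SLC4A3 at 554 against 3056 and 36.7 against 1145. Among the higher ones the prostaglandin transporter gene SLCO2A1 was at 372 against 8.01, the vesicular monoamine transporter gene SLC18A2 at 338 against 59.7 and SLC27A2, a fatty acid transport and activation gene, at 1912 against 559. HDC, which makes histamine, a substrate of SLC18A2, was at 17238 against 4682.

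Metabolic lists were smaller. All 4 listed genes of the amino acid stress response were lower, against 35.4% over all rows. They were INHBE at 6.91 against 66.3, the pseudokinase gene TRIB3 at 1141 against 6022, the tryptophan tRNA synthetase gene WARS at 5662 against 22483 and asparagine synthetase, ASNS, at 59.5 against 117. WARS is also known as an interferon-induced gene. Of 13 listed sterol and fatty acid genes 7 were lower and 3 higher, against 35.4% and 42.2% over all rows. The enzymes MSMO1, ACAT2 and IDI1 were lower at 2542 against 4020.3, 8321 against 11459 and 5553 against 7229, and HMGCS1, which makes the precursor of mevalonate, was not called at 30689 against 33018. The cholesterol efflux genes ABCA1 and ABCG1 and the LDL receptor ligase gene MYLIP, targets of liver X receptors, were higher at 14.8 against 4.77, 423 against 125 and 165 against 34.7. The metallothionein genes MT2A and MT1F differed in opposite directions, at 1789 against 8362 and 78.2 against 14.2. EPAS1, a hypoxia-inducible factor gene, was at 2428 against 386.

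Genes of the Wnt, Hedgehog and BMP pathways numbered 8 higher and 8 lower of 21, against 42.2% and 35.4% over all rows. The Wnt feedback genes AXIN2, RNF43 and NKD1 were lower at 180.0 against 614, 52.6 against 263 and 9.61 against 37.5. The ligand gene BMP4 and the BMP targets ID1 and ID2 were lower at 252 against 1402, 178 against 742 and 106 against 617, and the BMP antagonist gene NOG was higher at 45.2 against 5.10. GLI3, an effector of Hedgehog signalling, was higher at 337 against 22.6, as was HHIP, an inhibitor of the pathway, at 2249.7 against 259.8. ID3 and SMAD7 were not called, at 3040.4 against 3488 and 50.4 against 61.9.

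**Figure D4:**
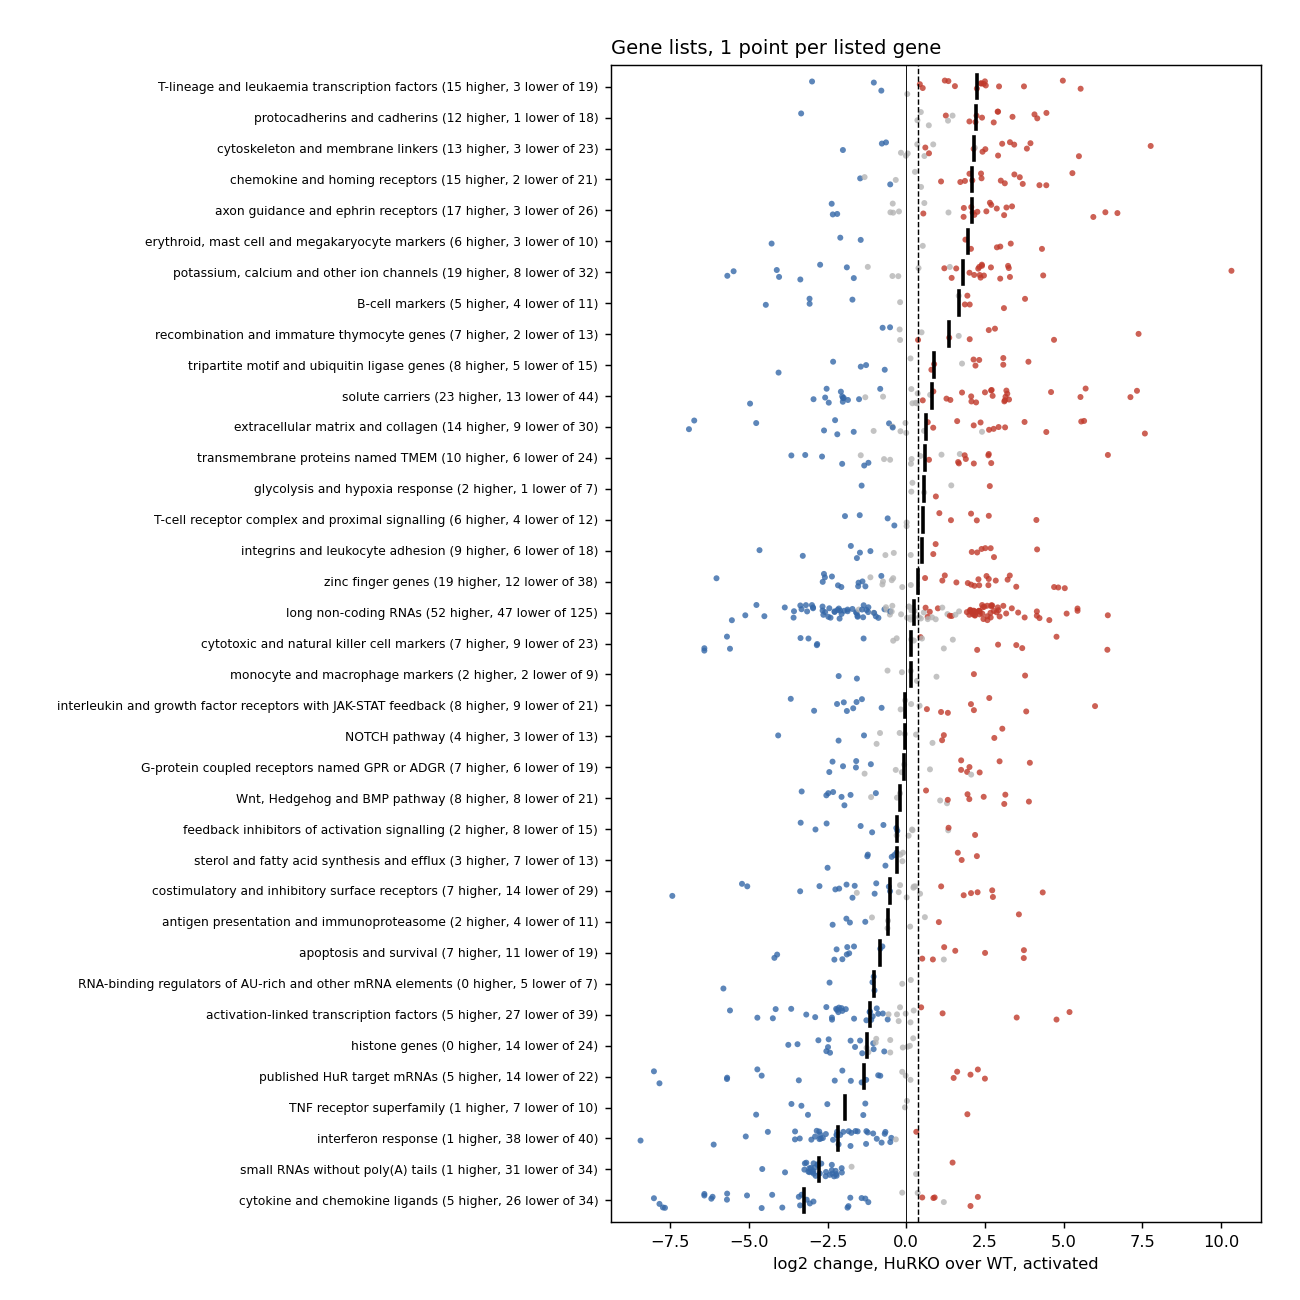
Points are listed genes of gene lists with at least 7 listed members, by log2 change of activated HuRKO over activated WT in the authors' deposited table. Red is higher, blue lower, grey not called, black bars are list medians, and the dashed line is the median of all rows, 0.36. Cytokine ligands lie lowest, with a median of -3.24, and T-lineage transcription factors highest, at 2.24.

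The label of a T-cell line was checked against 11 T-cell markers, of which 4 were in the table. TRAC and CD2 were lower and CD28 higher, and CD7 was not called, at 649 against 643. Values of the defining CD3 genes are not reported here. Markers of other cell types were called in both directions, and their part in the results above was not tested. Their counts stand beside 42.2% higher and 35.4% lower over all rows. Of 23 listed cytotoxic and natural killer genes 7 were higher and 9 lower. GZMK, GZMA and GZMM were at 755 against 8.99, 6685 against 885 and 487 against 37.9 and GNLY at 80.2 against 7.10, while GZMB and GZMH were at 193 against 1665 and 4.83 against 49.6. Granzymes K and A, which are neighbours on chromosome 5, thus differed from granzymes B and H, which are neighbours on chromosome 14. Among B-cell markers 5 were higher and 4 lower of 11. The B-cell coactivator gene POU2AF1 and its partner POU2F2 were at 399 against 3361 and 638 against 5364, FCER2 at 3.22 against 70.99, and IGHM at 297 against 34.5. Monocyte markers were listed in 9 genes, 2 of them higher and 2 lower, and erythroid and mast cell markers in 10, 6 higher and 3 lower. The erythroid genes HBA1 and HBA2, near-identical copies, were higher at 31.6 against 1.59 and 22.7 against 2.87, and another globin gene, HBQ1, was lower at 3.70 against 15.8.

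Of 18 listed entries for T-cell receptor gene segments 8 were higher and 3 lower, against 42.2% and 35.4% over all rows. TRGV9 and TRGV5 of the gamma locus on chromosome 7 were at 121 against 8.28 and 222 against 51.8, and TRBV28 of the beta locus on the same chromosome at 95.6 against 15.99. TRAV8-4, of the alpha locus, was at 7244 against 8726, and the joining segment TRAJ1, not called, at 49.5 against 41.2. These segments were chosen after their values were seen.

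By class of gene, 49.7% of 193 listed lincRNA genes were higher and 26.4% lower, against 42.1% and 37.2% of 1868 coding genes. Antisense genes were higher in 46.9% and lower in 20.7% of 179. CASC15 and FAM30A, a lymphoid non-coding RNA at 3981 against 363, were the largest gains among them, and MIR3142HG, the host of an NF-kB-linked microRNA, was at 627 against 3966. The antisense genes VIM-AS1 and HHIP-AS1 were higher like the genes they face, at 167 against 40.9 and 1441 against 184. Whether reads were counted by strand is not given in the sources used here, so these pairs cannot be told apart. Of 57 small RNA entries 45 were lower and 3 higher, and of 24 histone genes 14 were lower and 0 higher. Over all rows 35.4% were lower and 42.2% higher. With an FDR below 0.001, 5 histone genes were lower. Of 34 small RNA entries recognised by symbol 31 were lower, 7 of them with an FDR below 0.001. The small RNA entries include 12 rows named U2, near-identical copies whose counts are uncertain. Small RNAs and most histone mRNAs lack poly(A) tails, and the labels give poly(A) RNA as the material.

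Zinc finger genes numbered 19 higher and 12 lower of 38, against 42.2% and 35.4% over all rows. Some of those on chromosome 19 lay side by side. ZNF83, ZNF28 and ZNF888, which lie within 1 stretch of its long arm, were lower at 289.6 against 759.5, 115 against 330.5 and 83.3 against 238, and the next listed gene on either side, ZNF480 and ZNF347, was higher at 691 against 229 and 108 against 21.6. ZNF829 and ZNF568, next to each other among the listed genes, were lower at 6.90 against 41.4 and 8.08 against 50.9. ZNF83, ZNF28, ZNF888, ZNF829 and ZNF568 were lower at rest as well. These zinc finger genes were chosen after their values were seen. Over whole chromosomes the share of listed genes that were higher ran from 31.4% on chromosome 1 to 57.9% on chromosome 7, leaving aside the 5 listed mitochondrial genes and chromosome Y, where 16 of 17 were lower. For coding genes, again without chromosome Y, the span was from 29.1% on chromosome 6 to 56.0% on chromosome 7. Chromosome 14 had 49.1% higher and 21.6% lower. On chromosome Y the median log2 change was -8.96, and all 8 listed coding genes were lower. The part of chromosome content in the differences was not tested.

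Set beside resting cells, most genes called after activation were not called before it. At rest 648 of the listed genes were higher in HuRKO (25.0%) and 399 lower (15.4%). This comparison uses the other 6 libraries but the same 2 cell lines. Of the 1092 genes higher after activation 449 (41.1%) were higher at rest, 576 were not called and 67 were lower. Of the 916 lower genes 257 (28.1%) were lower at rest, 567 were not called and 92 were higher. Seen from the resting side, 69.3% of the genes higher and 64.4% of the genes lower at rest held the same direction after activation. A gene not called at rest may still differ there.

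**Figure D5:**
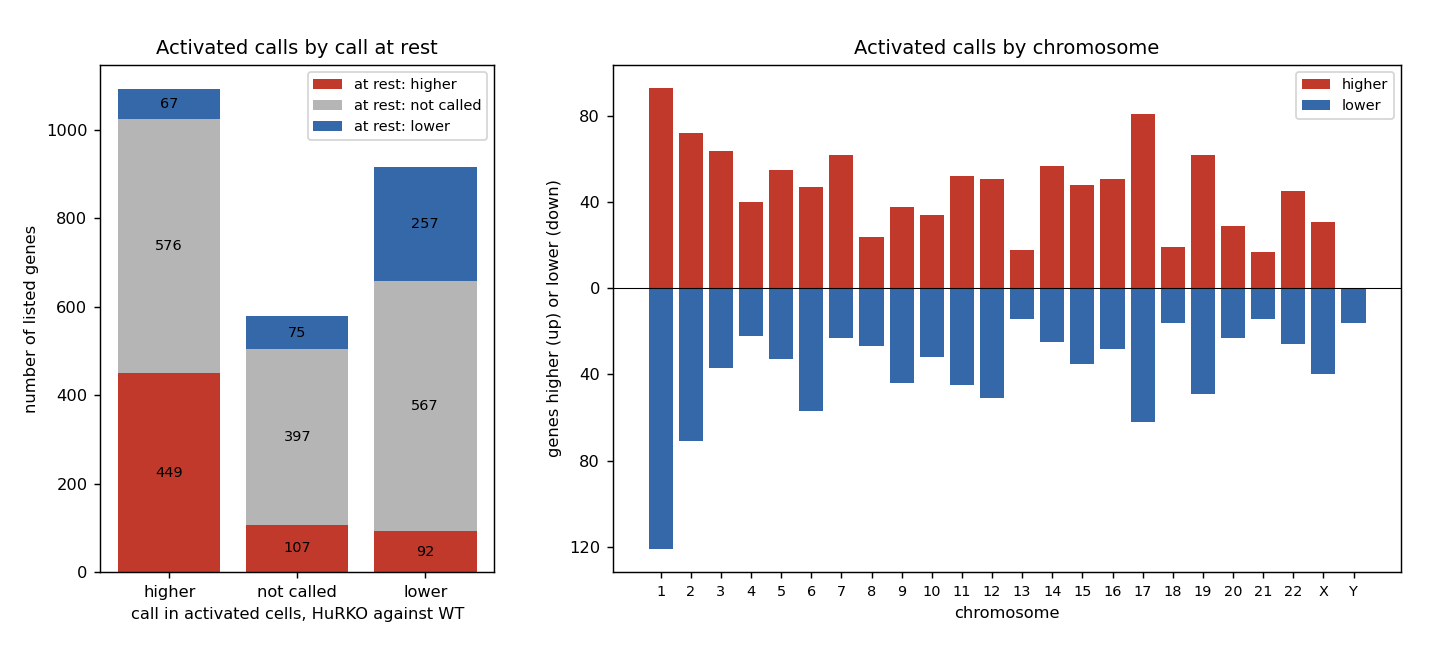
Left, numbers of listed genes by call in activated cells, coloured by their call at rest, HuRKO against WT. Right, numbers of genes higher (upward) and lower (downward) in activated HuRKO cells on each chromosome. The grey blocks of 576 and 567 genes are those called after activation but not at rest, and chromosome Y has lower genes only.

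Genes with opposite signs in the 2 states, by 2-fold or more in each, numbered 69, with pseudogenes and clone names left out. Of these 50 were higher at rest and lower after activation. At rest HRH2, a histamine receptor, stood at 14.2 and lay below the floor in WT, and it was at 564 against 1489 after activation. GBP2 was at 7.70 against 1.00 at rest, RGS16 at 57.3 against 5.75, GZMB at 13.1 against 2.24 and ID1 at 213 against 67.3, and each was lower after activation. IRF7 was at 140.5 against 62.7 and then at 444 against 1069. The other 19 were lower at rest and higher after activation. GRAP2, an adaptor of T-cell receptor signalling, was at 1323 against 3475 and then at 1717 against 641, FAM30A at 125 against 686 and then at 3981 against 363, and the actin-binding gene ABLIM1 at 537 against 2585 and then at 4831 against 2046. EPHA1 was at 10.52 against 82.9 and then at 409.9 against 116, and PLXNA4 at 6.07 against 22.3 and then at 78.4 against 7.63. In the authors' deposited table the activated log2 change of GRAP2 was 1.42 (FDR 2.1e-30) and the resting one -1.39 (FDR 6.7e-30). For ID1 they were -2.06 (FDR 4.3e-35) and 1.66 (FDR 2.0e-16).

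Some of the most abundant listed genes were not called. ZFP36L1, HMGCS1, LCP2, JUND, HIVEP3 and CD226 each had a level above 4000 in both activated groups, and their differences did not pass the threshold. JUND was at 4258 against 5033, HIVEP3 at 12528 against 10634 and CD226 at 4720.2 against 5573. These genes were chosen after their values were seen. The activation responses of each genotype share the activated libraries with the comparison described here, so their changes are not set against it.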

How the data were processed

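RNA was sequenced from 12 Jurkat libraries, 3 in each of 4 groups set by the sample titles. TopHat, Bowtie2 and hg38 are named in the submitters' processing notes, without versions, and they do not state how reads were counted or tested. Per the file headers, the authors deposited for 2587 genes a mean signal, a log fold change whose base is not named, and the FDR (an adjusted p-value) in 4 comparisons. The deposited changes are read here as log2. No column holds values of single libraries, so depth is unknown, no new fit was possible and 0 columns of per-sample values could not be mapped.

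Group levels were rebuilt from the mean and the 4 changes with Python 3.11, pandas 2.3.3 and numpy 2.4.6, and drawn with matplotlib 3.10.9. The rebuilding was tested on simulated data and the 3′ UTR motif counter on short written sequences. The promoter motif search had no such test. The base of the logarithm was taken as 2, since levels below the floor then pile up at 1 value, as a constant of the authors' fit would give: the fullest window of 10% width held 24.8% of such levels in activated WT, against 7.63% with base e and 3.37% with base 10.

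A call is an FDR below 0.05 in the authors' deposited table. Text names ELAVL1, the 8 largest rises and falls with a level of at least 10 in both activated groups, the 8 largest gains and losses of level, the 10 smallest FDRs in each direction, up to 6 called members of each list in each direction with further members where a count needs them, and genes of opposite sign at rest by 2-fold. Members and all 43 lists were chosen with earlier results of these data known. Lists were described by counts and medians, with no test. Gene positions, classes and 3′ UTRs came from GENCODE 29 (GRCh38), which matched 2577 of the 2587 gene identifiers, and promoter windows from RefSeq (GRCh38.p14). Stricter thresholds, a level minimum, another selection of rows and another base were tried as alternatives. Results for some genes are not reported here.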

Additional observations from a re-analysis of the deposited data

How the results depend on the processing

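No paired analysis was possible because the deposited table holds no values of single libraries, and leaving out each replicate could not be run for the same reason. With a mean level of at least 50, 494 genes were higher and 520 lower, which turns the larger direction, 300 and 297 of them by 4-fold or more, and 435 genes differed at rest in the same direction, against 706 over all rows. With an FDR below 0.001 in both states, 445 genes shared their direction at rest and 79 had the opposite direction, against 159, and with a log2 change of at least 1 in both states 76 had it. Over the higher and lower counts of 43 lists, 74 of 86 stayed within 1.5 times with a log2 change of at least 1, 73 with an FDR below 0.001 and 79 over rows selected in another comparison. The larger direction turned in the cell cycle list with an FDR below 0.001 and in the long non-coding RNAs over rows selected in another comparison. With a natural logarithm IL2 in activated HuRKO cells would stand at 5.30 and ELAVL1 at 212, and with a floor of 3 normalised counts 397 folds would be lower bounds in place of 134. The cause of these shifts was not tested, beyond the smaller number of genes each stricter rule leaves.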
